A study of Mus musculus with 9 samples.

Results

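The genes described here make cholesterol and fatty acids or control that synthesis, and their transcripts were read in mouse regulatory T cells with and without a targeted Sirt1 gene. They were chosen by name and not by a rule on the measured values, though earlier results of these data were known. The list holds 37 genes of sterol synthesis, of its control by SREBP, of the LXR pathway and of fatty acid synthesis. The platform annotation used here names a probe set for 34 of them, out of 12393 genes in all, and 31 were bright enough to be tested, out of 7436. Acat2, Insig1 and Nr1h2 have no named probe set in it, and Acaca, Fads2 and Nr1h3 lay below the filter on dim genes. By role, the 31 comprise 6 enzymes of the mevalonate steps, 11 enzymes from squalene to cholesterol, 4 SREBP regulators, 1 sterol carrier, 7 genes of fatty acid synthesis and desaturation, and 2 transporters regulated by LXR.

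RNA came from CD4+CD25+ regulatory T cells, separated with magnets, of mice on the C57BL6 strain, and each of the 9 samples was hybridised to 1 array. There were 3 genotypes with 3 arrays each: wild type mice and mice with a conditional knockout of Sirt1, a protein deacetylase that uses NAD. The knockout was made either by CD4 Cre recombinase, called CD4-cre here, or by Foxp3 Cre recombinase, called Foxp3-cre. The CD4 Cre is active in the T cell lineage at large, so cells other than regulatory T cells were targeted in those mice too, whereas the Foxp3 Cre is tied to the gene that marks regulatory T cells. The sources used here do not give the deleted part of Sirt1, the age and sex of the mice or the number of animals per sample. The samples of a group are called independent by the submitters, but not separate animals, and p-values here measure only the spread among these samples, some of which may be technical.

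Cells adjust their sterol synthesis to their sterol content. When membrane cholesterol is low, the escort protein SCAP carries the precursors of the SREBP transcription factors from the endoplasmic reticulum to the Golgi, where they are cleaved and released to the nucleus; INSIG proteins hold SCAP back when sterol is plentiful. SREBP-2, encoded by Srebf2, mainly drives the enzymes of the mevalonate pathway and of the later sterol steps, and SREBP-1, encoded by Srebf1, mainly drives fatty acid synthesis. The LXR receptors sense oxidised sterols and act in the other direction, through export of cholesterol by ABCA1 and ABCG1, and they also drive Srebf1. T cells switch on lipid synthesis when they grow and divide.

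Promoters of 4 members are shown because they hold letters of response elements for these regulators. RefSeq promoter windows (build GRCm38.p6) were found by symbol for 26 of the 34 genes, and the 250 bases before each transcript start were searched on both strands. A gene was counted if any of its windows matched. The letters TCACNCCAC of a sterol response element were found in 1 of the 26, Hmgcs1, and in 1.22% of all 27025 genes with a window. The letters of an LXR response element are GGTTA and GGTCA, in this order with any 5 bases between them. They were found in 3 of the 26, Abca1, Fasn and Srebf1, and in 12 of all 27025 genes (0.0444%). The sequences run 5′ to 3′ along the strand of the gene up to the base before the start, and capitals mark the matched letters, which in the last 3 are the reverse complement of the motif. They are Hmgcs1 at chr13:119690101-119690350 (plus strand, match beginning 137 bases before the start), Abca1 at chr4:53159896-53160145 (minus strand, 67 bases), Fasn at chr11:120824548-120824797 (minus strand, 225 bases) and Srebf1 at chr11:60210472-60210721 (minus strand, 182 bases, at 1 of several listed starts).
Hmgcs1: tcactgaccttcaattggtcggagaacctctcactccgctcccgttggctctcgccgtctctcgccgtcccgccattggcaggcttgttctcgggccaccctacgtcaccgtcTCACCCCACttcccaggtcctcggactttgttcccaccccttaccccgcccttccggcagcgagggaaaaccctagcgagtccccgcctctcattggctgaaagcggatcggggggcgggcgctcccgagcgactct
Abca1: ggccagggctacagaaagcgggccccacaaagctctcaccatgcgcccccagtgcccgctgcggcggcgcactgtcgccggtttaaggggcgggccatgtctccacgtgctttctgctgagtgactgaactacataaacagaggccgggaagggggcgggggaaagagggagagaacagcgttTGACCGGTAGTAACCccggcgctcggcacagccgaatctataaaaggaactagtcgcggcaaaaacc
Fasn: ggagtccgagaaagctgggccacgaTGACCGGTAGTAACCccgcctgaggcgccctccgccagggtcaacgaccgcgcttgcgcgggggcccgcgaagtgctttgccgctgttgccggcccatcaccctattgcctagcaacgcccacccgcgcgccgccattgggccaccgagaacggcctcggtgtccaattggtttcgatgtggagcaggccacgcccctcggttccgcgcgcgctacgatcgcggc
Srebf1: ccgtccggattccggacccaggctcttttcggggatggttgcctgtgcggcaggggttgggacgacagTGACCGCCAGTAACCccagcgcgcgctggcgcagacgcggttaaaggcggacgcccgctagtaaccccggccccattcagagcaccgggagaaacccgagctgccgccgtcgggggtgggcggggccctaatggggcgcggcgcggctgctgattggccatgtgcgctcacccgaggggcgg
The match of Abca1 and that of Fasn are the same 15 letters, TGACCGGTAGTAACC, and that of Srebf1 reads TGACCGCCAGTAACC. The letters CCAAT, bound by NF-Y, which works beside SREBP at sterol genes, were found in 19 of the 26 members and in 37.5% of all genes. The E-box letters CACGTG were found in 5 of the 26 (Hsd17b7, Sc5d, Dhcr7, Scap and Abca1) and in 6.86% of all genes. These matches describe letters and show no binding, and a window without a match says nothing about the factor. The letters were chosen with the members known, so the shares are descriptions and no test.

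Signals are on the log2 scale, where a difference of 1 is a doubling, and levels of different genes are not compared. On the array labelled wild type replicate 2 the correlation with the other arrays was 0.982 to 0.988, against 0.992 or more among the other 8, and its beta-actin signal, 5′ minus 3′, was -1.53 against -0.68 to -0.45. Sirt1 read 6.77 there, 7.90 and 7.91 for the remaining wild type arrays and 7.47 to 7.69 over the 6 knockout arrays. Whether its probe set lies in the deleted part is not known here, so these values check no label, and arrays are called by their labels throughout. Markers of T cells were bright on all 9 arrays, with a mean of 10.61 to 10.80 over 6 genes. Foxp3 read 9.16 to 9.69 in wild type and CD4-cre but 2.67, 3.38 and 2.83 in Foxp3-cre. There it was at or above only 11.3 to 23.9% of probe sets, a dim signal for the marker that defines regulatory T cells. Whether its probe set reads a part of the gene altered along with the Foxp3 Cre is not known here. These values therefore do not show that the cells lacked Foxp3. Of 8 regulatory T cell markers Foxp3 alone passed in Foxp3-cre against wild type, and 4 of the 8 were positive. The array labelled wild type replicate 2 was the lowest of the 9 in 14 of the 31 tested lipid synthesis genes, against 35.9% of all tested genes, and the highest in 7, against 23.5%, together 67.7% against 59.4%. Results are therefore also given without it. Fewer wild type arrays then remain, so groups separate from them more easily. The share of all tested genes that separate in that setting is not given here.

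Few of these genes passed the test, and the clearest change was in the sterol carrier Stard4. In CD4-cre against wild type 0 of 31 passed in limma, while 0.229% of all tested genes rose and 0.43% fell, 0.659% together, and 8 had an unadjusted p below 0.05, against 14.1% of all tested genes. In Foxp3-cre against wild type 1 of 31 rose, Stard4, and 0 fell, while 1.69% of all tested genes rose and 1.67% fell, 3.36% together, and 8 members had an unadjusted p below 0.05, against 21.3%. For the mean of both knockouts against wild type Stard4 again was the only member to pass, while 0.995% of all tested genes rose and 1.26% fell, 2.26% together, and 11 members had an unadjusted p below 0.05, against 20.1%. Between the knockouts 0 of 31 passed, with 2 at an unadjusted p below 0.05 (Sqle and Srebf2), where 0.0134% of all genes were called and 11.3% had such a p. With limma array weights, which give less weight to arrays that deviate from their group, 11 of 31 were called in CD4-cre and 7 in Foxp3-cre, where 1298 and 1539 of all 7436 genes were called.

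Most members nevertheless lay slightly above wild type in CD4-cre. Of the 31, 23 had a positive difference there, with a median of 0.15, beside 56.3% and 0.03 over all tested genes. In Foxp3-cre 19 of 31 were positive, with a median of 0.10, beside 51.1% and 0.01. Both differences use the same wild type arrays, so they are not independent of each other. The knockouts themselves stood at a median of -0.07 for Foxp3-cre minus CD4-cre, with 11 of 31 positive, beside -0.02 and 45.3% over all tested genes. These medians are descriptions without a test, and the signs are those of 1 probe set per gene. Of 13 members with more than 1 probe set above the filter, all probe sets shared a sign in 8 for CD4-cre. For Foxp3-cre they did so in 9.

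**Figure D1:**
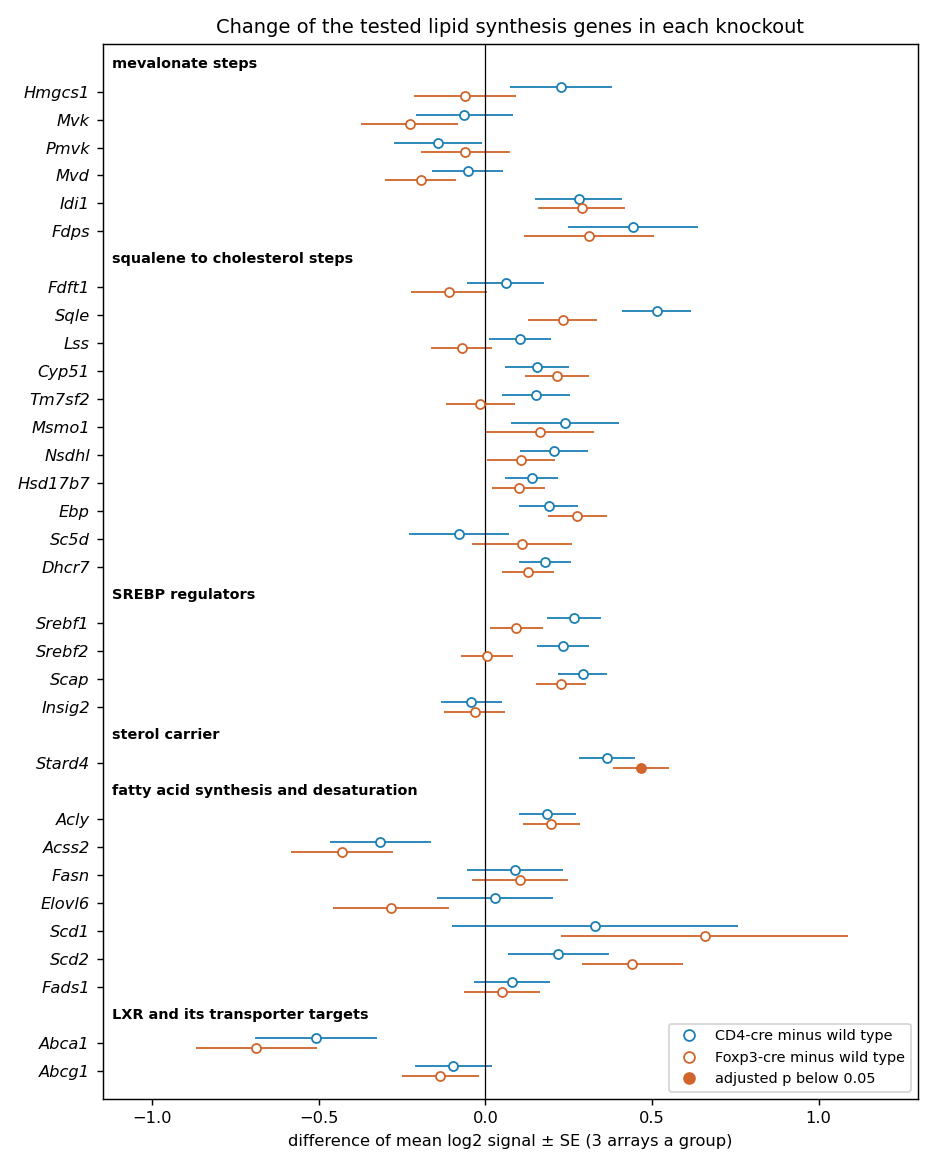
Difference of mean log2 signal from wild type for the 31 tested lipid synthesis genes, grouped by role, in CD4-cre (blue) and Foxp3-cre (orange); bars are the SE from limma with 3 arrays a group, and a filled point has an adjusted p below 0.05. The only filled point is Stard4 in Foxp3-cre, and Abca1 lies farthest to the left.

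The mevalonate steps build the isoprenoid unit from acetyl-CoA, and with all arrays no enzyme passed in any comparison. In CD4-cre 3 of 6 enzymes were positive, with a median of 0.09, and in Foxp3-cre 2 of 6, with a median of -0.06. When wild type replicate 2 was left out, 6 of 6 were positive in CD4-cre (median 0.12) and 4 of 6 in Foxp3-cre (median 0.09), so the sign of the Foxp3-cre median rested on that array. Fdps, which makes farnesyl diphosphate, read 7.59, 6.71 and 7.30 for wild type, 7.78, 7.62 and 7.53 for CD4-cre and 7.62, 7.36 and 7.56 for Foxp3-cre. Wild type replicate 2 was the lowest of the 9, and the differences of 0.44 and 0.31 (SE 0.19 each, limma adjusted p = 0.352 and 0.379) were 0.20 and 0.07 without that array. Idi1, the isomerase before it, read 7.71, 7.18 and 7.61 for wild type, 7.79, 7.71 and 7.85 for CD4-cre and 7.81, 7.86 and 7.70 for Foxp3-cre. Again replicate 2 was the lowest array, and the differences of 0.28 and 0.29 shrank to 0.12 and 0.13 without it. A dimmer probe set of Idi1 gave 0.07 in each knockout with all arrays, and -0.14 and -0.13 without that array.

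Mvk, the mevalonate kinase, showed the opposite pattern within wild type. Its signals were 5.93, 6.51 and 5.92 for wild type, 6.07, 6.05 and 6.06 for CD4-cre and 5.80, 5.98 and 5.90 for Foxp3-cre. Replicate 2 was the highest of all 9 arrays, and the difference of CD4-cre from wild type was -0.06 with it and 0.13 without it. A dimmer probe set of Mvk gave 0.05 and 0.18 there, with and without that array. Pmvk and Mvd, which complete the phosphorylation and decarboxylation of mevalonate, also had their highest signal on that array and stood at -0.14 and -0.05 in CD4-cre and at -0.06 and -0.19 in Foxp3-cre. Leaving it out gave Pmvk 0.02 and Mvd 0.04 for CD4-cre, and Pmvk 0.11 and Mvd -0.10 for Foxp3-cre, so 3 of these 4 differences changed sign. Among the mevalonate steps that array was thus the lowest for Idi1 and Fdps and the highest for Hmgcs1, Mvk, Pmvk and Mvd.

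Hmgcs1, which condenses acetyl groups to HMG-CoA and whose promoter carries the sterol response element letters shown above, was singled out after its values were seen. Its brightest probe set read 7.92, 8.59 and 8.07 for wild type, 8.45, 8.43 and 8.38 for CD4-cre and 8.16, 8.24 and 8.0002 for Foxp3-cre. The 3 CD4-cre arrays lay above wild type replicates 1 and 3 and below replicate 2, and above all 3 Foxp3-cre arrays. With all arrays the CD4-cre difference was 0.23 (SE 0.15, limma adjusted p = 0.521), and without wild type replicate 2 Hmgcs1 rose by 0.42 (SE 0.08, adjusted p = 0.0438). In Foxp3-cre it stood at -0.06 with that array and at 0.13 without it. With all arrays the other 3 probe sets of Hmgcs1, all above the filter, gave 0.20 to 0.39 in CD4-cre and 0.26 to 0.36 in Foxp3-cre. The probe sets thus differed in sign for Foxp3-cre. Without wild type replicate 2 those 3 gave only 0.09, 0.27 and 0.02 in CD4-cre, below the 0.42 of the brightest, and 0.14 to 0.18 in Foxp3-cre.

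From squalene to cholesterol 10 of the 11 enzymes were positive in CD4-cre, with a median of 0.15, and 8 of 11 in Foxp3-cre, with a median of 0.11, and 0 passed the test in either. Sqle, the squalene epoxidase and a rate-controlling step of the late pathway, had the largest difference in CD4-cre. It read 7.10, 6.76 and 7.04 for wild type, 7.53, 7.50 and 7.41 for CD4-cre and 7.30, 7.17 and 7.12 for Foxp3-cre. The 3 groups did not overlap, with wild type lowest, Foxp3-cre next and CD4-cre highest. The difference from wild type was 0.51 (SE 0.10, limma adjusted p = 0.0706) for CD4-cre and 0.23 (SE 0.10, adjusted p = 0.236) for Foxp3-cre. Foxp3-cre minus CD4-cre was -0.28 (SE 0.10, limma adjusted p = 0.333), so the gap between the knockouts did not pass. Without wild type replicate 2, which was the lowest array, Sqle rose in CD4-cre by 0.41 (SE 0.07, adjusted p = 0.0325) and stood at 0.13 for Foxp3-cre.

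Ebp, the sterol isomerase, read 9.05, 8.78 and 8.86 for wild type, 9.08, 9.18 and 8.997 for CD4-cre and 9.15, 9.19 and 9.17 for Foxp3-cre. The Foxp3-cre arrays all lay above wild type, and the differences were 0.19 (SE 0.09, limma adjusted p = 0.375) for CD4-cre and 0.28 (SE 0.09, adjusted p = 0.12) for Foxp3-cre. Without wild type replicate 1 Ebp rose in Foxp3-cre, by 0.35 (limma adjusted p = 0.0463). Msmo1, the sterol methyl oxidase, read 7.09, 6.50 and 7.21 for wild type, 7.25, 7.09 and 7.17 for CD4-cre and 7.18, 7.03 and 7.08 for Foxp3-cre. Only the array labelled wild type replicate 2 stood apart there, and the differences of 0.24 and 0.16 were 0.02 and -0.05 without it. Of the other enzymes, Cyp51, Nsdhl, Hsd17b7 and Dhcr7 stood at 0.14 to 0.21 in CD4-cre and at 0.10 to 0.21 in Foxp3-cre, and Dhcr7, the last reductase of the pathway, was higher on all 3 CD4-cre arrays than on all 3 wild type arrays. Fdft1, Lss and Tm7sf2 were positive in CD4-cre (0.06 to 0.15) and negative in Foxp3-cre (-0.11 to -0.02), where Tm7sf2 stood at 0.07 when wild type replicate 2 was left out. Sc5d was at -0.08 and 0.11 with all arrays and at -0.27 and -0.08 without wild type replicate 2, its lowest array. The CD4-cre arrays then all lay below the remaining wild type arrays. Cyp51 stood at 0.06 and 0.12 without wild type replicate 2.

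As a mean over the 17 enzymes of both stretches, the wild type arrays stood at 6.98, 6.94 and 6.98, the CD4-cre arrays at 7.14, 7.12 and 7.08, and the Foxp3-cre arrays at 7.09, 7.04 and 6.98. The CD4-cre arrays all lay above wild type on this mean, and the lowest Foxp3-cre array was at the level of the higher wild type arrays. Between the knockouts, 9 of the 31 members had all 3 Foxp3-cre arrays below all 3 CD4-cre arrays (Hmgcs1, Mvk, Mvd, Sqle, Tm7sf2, Srebf1, Srebf2, Elovl6 and Abca1) and 0 had them above. Over all tested genes that held for 18.8% and 10.9%. Sqle, Dhcr7, Srebf1, Srebf2, Scap, Stard4 and Scd2 were higher on every CD4-cre array than on every wild type array, 7 of 31, against 11.9% of all tested genes, and 0 were lower, against 9.16%.

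**Figure D2:**
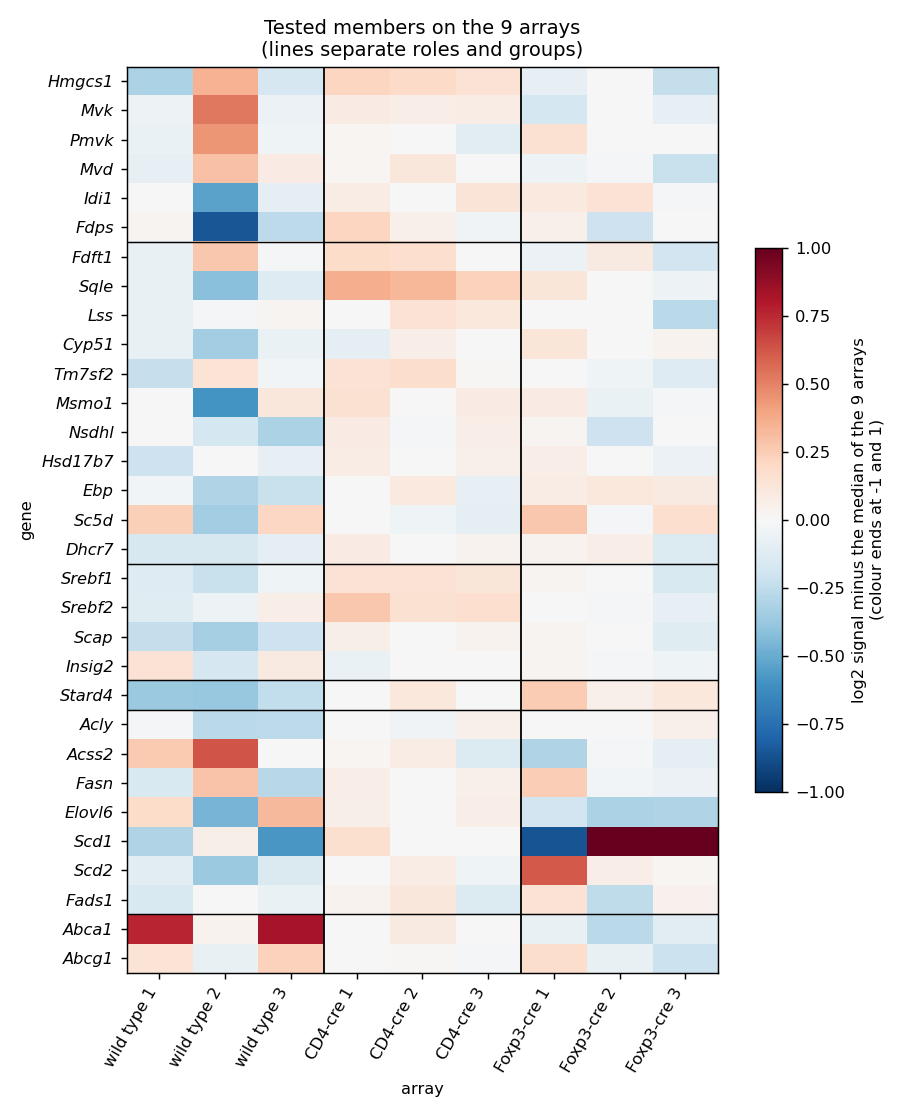
Log2 signal of each tested lipid synthesis gene on each of the 9 arrays, as the difference from that gene's median over the arrays; blue is lower, red is higher, and horizontal lines separate the roles. The column of wild type replicate 2 holds the lowest value of 14 genes and the highest of 7, and Foxp3-cre replicate 1 differs from the other Foxp3-cre arrays in Scd1 and Scd2.

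Among the regulators of SREBP, 3 of 4 were positive in both knockouts with all arrays and 0 passed. Scap, the escort that carries the precursors out of the endoplasmic reticulum, read 8.77, 8.67 and 8.80 for wild type, 9.06, 9.01 and 9.04 for CD4-cre and 9.03, 9.004 and 8.88 for Foxp3-cre. All 6 knockout arrays lay above all 3 wild type arrays, as they did for 5.66% of all tested genes. The differences were 0.29 (SE 0.07, limma adjusted p = 0.133) and 0.23 (SE 0.07, adjusted p = 0.124), and the mean of both knockouts stood at 0.26 (SE 0.06, adjusted p = 0.0725).

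The genes of both transcription factors read highest on the CD4-cre arrays. Srebf1 read 8.04, 7.95 and 8.13 for wild type, 8.31, 8.31 and 8.29 for CD4-cre and 8.20, 8.17 and 8.02 for Foxp3-cre. The CD4-cre arrays were the highest of the 9, while Foxp3-cre overlapped wild type, and the differences were 0.27 (SE 0.08, limma adjusted p = 0.193) and 0.09 (SE 0.08, adjusted p = 0.513). Srebf2 read 8.17, 8.24 and 8.36 for wild type, 8.57, 8.45 and 8.47 for CD4-cre and 8.30, 8.28 and 8.22 for Foxp3-cre. Here too the CD4-cre arrays were the highest and the other groups overlapped, with differences of 0.23 (SE 0.08, limma adjusted p = 0.231) and 0.00 (SE 0.08, adjusted p = 0.976) for Foxp3-cre. Between the knockouts, Foxp3-cre minus CD4-cre was -0.17 (limma adjusted p = 0.46) for Srebf1 and -0.23 (adjusted p = 0.308) for Srebf2, so neither difference between the genotypes passed. The second probe set of Srebf2 gave 0.11 in CD4-cre and -0.16 in Foxp3-cre.

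Insig2, which retains SCAP in the endoplasmic reticulum, read 6.48, 6.17 and 6.43 for wild type, 6.27, 6.34 and 6.34 for CD4-cre and 6.37, 6.32 and 6.30 for Foxp3-cre. The knockout arrays lay within the wild type range, at -0.04 and -0.03 (SE 0.09 each), but the lower end of that range was wild type replicate 2 alone. With that array left out, all 6 knockout arrays lay below the remaining wild type arrays. The differences were then -0.14 and -0.13 (SE 0.06 each, limma adjusted p = 0.213 and 0.201), and neither passed.

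Stard4, which moves cholesterol between membranes in the cytosol and is a target of SREBP-2, was the member with the clearest difference. Its signals were 5.66, 5.65 and 5.79 for wild type, 6.03, 6.14 and 6.03 for CD4-cre and 6.29, 6.08 and 6.14 for Foxp3-cre. All 6 knockout arrays lay above all 3 wild type arrays, and the knockouts overlapped each other. Stard4 rose in Foxp3-cre by 0.47, a fold of 1.38 (SE 0.08, limma adjusted p = 0.0233), and stood at 0.37 in CD4-cre (SE 0.08, adjusted p = 0.104). Over both knockouts it rose by 0.42, a fold of 1.33 (SE 0.07, limma adjusted p = 0.0248), and the difference between the knockouts was 0.10 (SE 0.08, adjusted p = 0.724).

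A dimmer probe set of Stard4 gave 0.23 in CD4-cre and 0.26 in Foxp3-cre. The rise in Foxp3-cre was 0.44 (SE 0.08, limma adjusted p = 0.0224) when wild type replicate 2 was left out. Its call in Foxp3-cre was lost without CD4-cre replicate 1 (limma adjusted p = 0.0554) and without Foxp3-cre replicate 3 (adjusted p = 0.073), at a difference of 0.41 or more in every set of 8 arrays. It was also lost when only the groups compared were fitted (adjusted p = 0.115), and Stard4 is not tested under a filter at the 60th percentile.

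**Figure D3:**
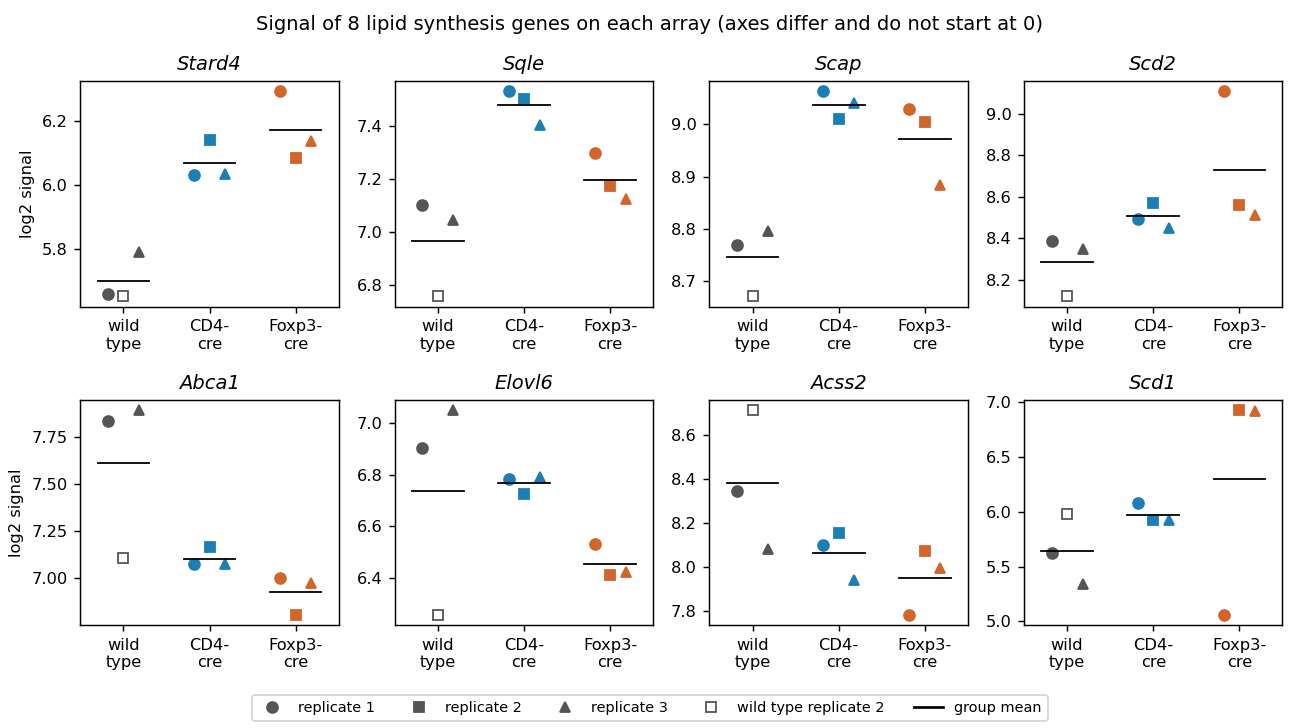
Log2 signal of 8 lipid synthesis genes on every array (points, with the replicate given by the marker shape and wild type replicate 2 open; lines are group means); the axes differ between genes and do not start at 0. For Stard4, Sqle, Scap and Scd2 all knockout points lie above all wild type points, whereas for Abca1 and Elovl6 the open wild type point lies far below the other wild type points.

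Transcripts of dividing cells and of other leukocytes also differed between the groups in which Stard4 was compared. The mean of 29 cell cycle genes was 7.57, 7.14 and 7.32 for wild type, 7.67, 7.76 and 7.65 for CD4-cre and 8.65, 7.89 and 8.06 for Foxp3-cre. Of the 28 tested, 11 rose in Foxp3-cre and 0 in CD4-cre, against 1.69% and 0.229% of all tested genes. Foxp3-cre replicate 1 had the highest value both of this mean and of Stard4. The mean of 10 neutrophil markers was 7.78 to 8.75 in wild type, 8.23 to 9.08 in CD4-cre and 9.16 to 10.14 in Foxp3-cre, where 6 of 10 rose. The mean of 12 monocyte and macrophage markers, of which 6 were dim, was 4.93 to 5.35, 4.88 to 5.85 and 5.42 to 6.88. Of the other marker lists in Foxp3-cre, 1 of 5 NK cell genes fell, and 0 of 3 dendritic cell, 0 of 2 CD8 T cell and 0 of 5 B cell genes passed. The part of dividing cells and of these leukocytes in the lipid gene results was not tested. In bulk RNA, fewer cells of a type and less RNA per cell cannot be told apart.

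Fatty acid synthesis turns cytosolic acetyl-CoA into palmitate, which is then elongated and desaturated. With all arrays 0 of its 7 tested genes passed, 6 were positive in CD4-cre (median 0.09) and 5 in Foxp3-cre (median 0.10). Acly, which makes acetyl-CoA from citrate, stood at 0.19 and 0.20, and another bright probe set of it at -0.15 and -0.16. Fasn, the fatty acid synthase, stood at 0.09 and 0.10 with all arrays. Leaving out wild type replicate 2, its highest array, put all 6 knockout arrays above the remaining wild type arrays. The differences were then 0.26 and 0.27 (SE 0.10 each, limma adjusted p = 0.179 and 0.125), and neither passed. The values of Fads1, a front-end desaturase, were 0.08 and 0.05. Acaca read 2.68 to 3.29 and Fads2 3.87 to 4.25, dim on all arrays.

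Acss2, which makes acetyl-CoA from acetate, lay below wild type. Its signals were 8.35, 8.71 and 8.08 for wild type, 8.10, 8.15 and 7.94 for CD4-cre and 7.78, 8.07 and 7.996 for Foxp3-cre. The 3 Foxp3-cre arrays were below all wild type arrays, CD4-cre overlapped wild type, and wild type replicate 2 was the highest of the 9. The differences were -0.32 (SE 0.15, limma adjusted p = 0.385) and -0.43 (SE 0.15, adjusted p = 0.148), and -0.15 and -0.26 without that array. A dimmer probe set of Acss2 moved the other way, from -0.10 and -0.14 with all arrays to -0.25 and -0.29 without it.

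The stearoyl-CoA desaturases make monounsaturated fatty acids, and of the 31 tested members their genes had the largest spread among the Foxp3-cre arrays (SD of 1.08 for Scd1 and 0.33 for Scd2, n = 3). Scd1 read 5.62, 5.98 and 5.34 for wild type, 6.08, 5.92 and 5.92 for CD4-cre and 5.06, 6.93 and 6.92 for Foxp3-cre. Foxp3-cre replicate 1 was the lowest of all 9 arrays while replicates 2 and 3 were the highest, and the difference from wild type was 0.66 with an SE of 0.43 (limma adjusted p = 0.399). Without Foxp3-cre replicate 1 Scd1 rose by 1.28 (limma adjusted p = 0.0107). The mean of 7 B cell markers moved the same way, at 6.15 on Foxp3-cre replicate 1 and 7.46 and 7.56 on replicates 2 and 3, against 6.06 to 6.66 in wild type and 6.69 to 6.79 in CD4-cre. Of the markers that define B cells, Cd79a read 6.46, 8.10 and 8.37 on the 3 Foxp3-cre arrays and Pax5 was dim throughout (3.38 to 3.99). This order was not particular to B cells. Foxp3-cre replicates 1, 2 and 3 stood at 9.16, 9.54 and 10.14 for neutrophil markers and at 5.42, 6.21 and 6.88 for monocyte and macrophage markers. NK cell markers stood at 7.19, 7.52 and 7.78. The T cell markers went the other way (10.74, 10.69 and 10.67), and those of regulatory T cells stood at 7.98, 8.16 and 7.98. The part of any of these cells in the Scd1 values was not tested.

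Scd2 read 8.39, 8.12 and 8.35 for wild type, 8.49, 8.57 and 8.45 for CD4-cre and 9.11, 8.56 and 8.51 for Foxp3-cre. All 6 knockout arrays lay above wild type, and Foxp3-cre replicate 1, which also had the highest cell cycle mean, stood 0.5 or more above every other array. The differences were 0.22 (SE 0.15, limma adjusted p = 0.533) and 0.44 (SE 0.15, adjusted p = 0.141), and 0.14 and 0.36 with wild type replicate 2 left out. Sqle, Scap, Stard4 and Scd2 were the 4 of 31 members with every knockout array above every wild type array, against 5.66% of all tested genes, and 0 members had the reverse, against 5.29%. In Foxp3-cre alone 7 were above wild type on all arrays (Sqle, Cyp51, Ebp, Scap, Stard4, Acly and Scd2) and 2 below (Acss2 and Abca1), against 11.1% and 12.2%.

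Elovl6, the elongase that turns palmitate into stearate, was singled out after its values were seen. It read 6.91, 6.26 and 7.05 for wild type, 6.78, 6.73 and 6.79 for CD4-cre and 6.53, 6.41 and 6.42 for Foxp3-cre. The Foxp3-cre arrays lay below all CD4-cre arrays and below wild type replicates 1 and 3, but above the low replicate 2. The difference of Foxp3-cre from wild type was -0.28 (SE 0.17, limma adjusted p = 0.372) with all arrays. Without wild type replicate 2 Elovl6 fell in Foxp3-cre by 0.52 (SE 0.07, adjusted p = 0.00765), and CD4-cre stood at -0.21 (adjusted p = 0.131). The dimmer probe set of Elovl6 gave -0.27 for CD4-cre and -0.48 for Foxp3-cre with all arrays, and at -0.26 and -0.47 without wild type replicate 2.

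The LXR side was represented by Abca1 and Abcg1, since Nr1h2 has no named probe set and Nr1h3, which encodes LXR alpha, read 4.51 to 4.89, below the filter on all arrays. Abca1, which exports cholesterol to apolipoprotein A-I and whose promoter carries the LXR element letters shown above, had the lowest differences of all 31 members. It read 7.84, 7.11 and 7.90 for wild type, 7.07, 7.16 and 7.07 for CD4-cre and 7.0, 6.81 and 6.97 for Foxp3-cre. The array labelled wild type replicate 2 lay at the level of the CD4-cre arrays, and the other wild type arrays lay above all 6 knockout arrays. With all arrays the differences were -0.51 (SE 0.18, limma adjusted p = 0.262) for CD4-cre and -0.69 (SE 0.18, adjusted p = 0.0755) for Foxp3-cre. Without wild type replicate 2 Abca1 fell by 0.76 in CD4-cre (SE 0.0745, limma adjusted p = 0.00666) and by 0.94 in Foxp3-cre (SE 0.0745, adjusted p = 0.00123). Foxp3-cre minus CD4-cre was -0.18 (SE 0.18, limma adjusted p = 0.81).

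The Abca1 result came from 1 probe set, as the other 2 lay below the filter at means of 2.98 and 2.56. Of the 40 tested genes nearest to Abca1 in gene order, 20 on each side, 1 was called in CD4-cre and 3 in Foxp3-cre with all arrays, against 0.659% and 3.36% of all tested genes, and 2 and 4 without wild type replicate 2, against 2.57% and 7.63%. Abcg1, which exports cholesterol to lipoprotein particles, read 8.78, 8.57 and 8.88 for wild type, 8.64, 8.66 and 8.63 for CD4-cre and 8.82, 8.57 and 8.43 for Foxp3-cre. The groups overlapped, and its differences were -0.10 and -0.14 (SE 0.12 each). With wild type replicate 2 left out they were -0.18 and -0.22 (SE 0.11 each, limma adjusted p = 0.354 and 0.221). The CD4-cre arrays then all lay below the remaining wild type arrays. Fasn and Srebf1, whose windows hold LXR element letters too, stood at 0.09 (SE 0.14) and 0.27 (SE 0.08) in CD4-cre. With all arrays none of the 3 members with these letters passed there, and a common influence of LXR on them was not tested.

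Leaving out the array labelled wild type replicate 2 changed which lipid synthesis genes passed. In CD4-cre 3 of 31 were then called, with Hmgcs1 and Sqle higher and Abca1 lower, against 0.753% of all tested genes higher and 1.82% lower, 2.57% together. In Foxp3-cre 3 were called, with Stard4 higher and Abca1 and Elovl6 lower, against 2.69% higher and 4.94% lower, 7.63% together. The mean of both knockouts gave the same 3 genes as Foxp3-cre, against 5.37%, and between the knockouts 0 were called, against 0.968%. The medians of the members moved little, from 0.15 to 0.14 in CD4-cre and from 0.10 to 0.09 in Foxp3-cre.

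**Figure D4:**
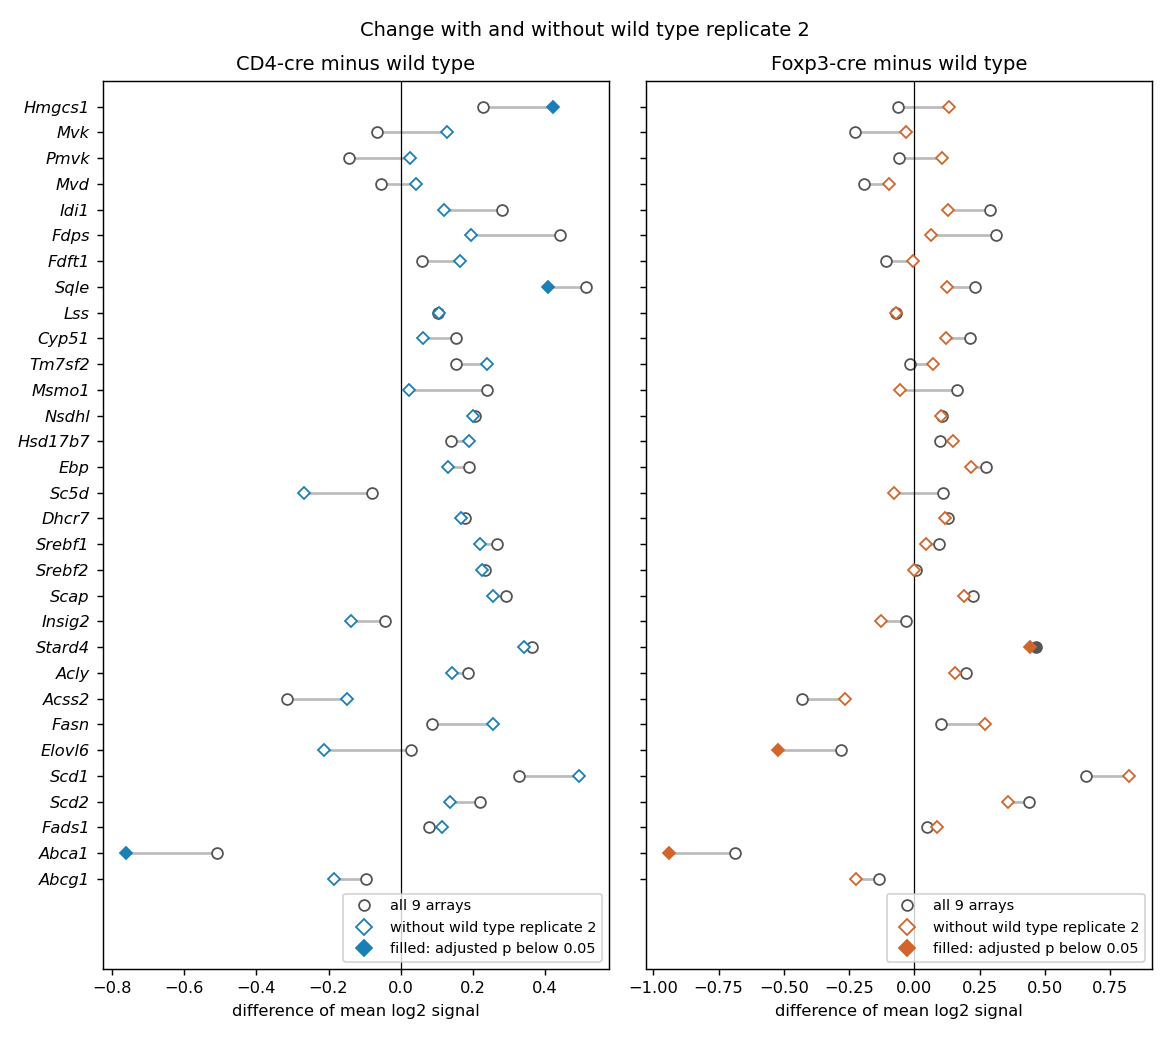
Difference of mean log2 signal from wild type for the 31 tested lipid synthesis genes with all 9 arrays (grey circles) and without wild type replicate 2 (coloured diamonds), in CD4-cre (left) and Foxp3-cre (right); filled symbols have a limma adjusted p below 0.05. Abca1 moves from -0.51 to -0.76 in CD4-cre and Elovl6 from -0.28 to -0.52 in Foxp3-cre, while Stard4 hardly moves.

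Other genes of the same pathways, listed by function, gave few calls. Of 10 tested genes of sterol synthesis, uptake and SREBP processing (20 listed, 13 with a probe set) 0 passed in any comparison with all arrays. Of all tested genes 0.0134 to 3.36% passed, depending on the comparison. With all arrays the largest differences of the mean of both knockouts there were those of Erlin1, which helps sterols restrain SREBP, at 0.37 (SE 0.16, limma adjusted p = 0.223), and Scarb1, a lipoprotein receptor, at 0.35 (SE 0.12, adjusted p = 0.145). They stood at 0.19 and 0.25 when wild type replicate 2 was left out. Without wild type replicate 2, Npc2, which carries cholesterol out of lysosomes, fell in Foxp3-cre by 0.26 (limma adjusted p = 0.0403), and with all arrays it stood at -0.35 (adjusted p = 0.0704).

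Of 14 tested genes of fatty acid and glycerolipid synthesis (22 listed, 19 with a probe set) 0 rose in any comparison with all arrays. Lpin1 alone fell, in Foxp3-cre and over both knockouts, against 1.67% and 1.26% of all tested genes. In CD4-cre 0 fell, against 0.43%. Lpin1 encodes a phosphatidate phosphatase of triglyceride synthesis that also acts in the nucleus, where it restrains SREBP. It read 7.37, 7.28 and 7.55 for wild type, 6.32, 6.53 and 6.93 for CD4-cre and 6.34, 6.54 and 6.61 for Foxp3-cre. All 6 knockout arrays lay below all 3 wild type arrays. Lpin1 fell in Foxp3-cre by 0.91 (SE 0.15, limma adjusted p = 0.0202) and over both knockouts by 0.86 (SE 0.13, adjusted p = 0.015), and stood at -0.81 in CD4-cre (SE 0.15, adjusted p = 0.0598). Without wild type replicate 2 it also passed in CD4-cre, where it fell by 0.87 (limma adjusted p = 0.0438).

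Of 6 tested LXR partners and further LXR targets (9 listed, 7 with a probe set) 0 passed with all arrays, against 0.0134 to 3.36% of all tested genes. Pltp, the phospholipid transfer protein, stood at -0.26 over both knockouts (SE 0.24, limma adjusted p = 0.541), and 0.06 without wild type replicate 2. Smpdl3a, a lipid phosphodiesterase, stood at -0.24 (SE 0.08, adjusted p = 0.129) and fell by 0.30 without that array (adjusted p = 0.0458).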

How the data were processed

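The 9 Affymetrix arrays, 3 per genotype, were grouped by their labels. The authors deposited 1 log2 signal per probe set and array, made with RMA per the submitters' processing notes; the sources used here do not give its version. RMA normalizes between arrays, so a change common to all genes would be removed, and it compresses small differences of dim probe sets. The number of arrays limits the precision.

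Of 22690 probe sets, 64 were controls, 20380 carried 1 gene symbol by the platform annotation (GEO's), 691 several and 1555 none; 20351 symbols were matched by gene ID to RefSeq genes (GRCm38.p6), and 0 changed. A gene was represented by its probe set with the highest mean (4956 genes had more than 1), and tests took in genes whose mean reached the 40th percentile (log2 4.979). The 7436 genes were fitted with limma 3.58.1 in R 4.3.3 (lmFit, eBayes; 6 residual and 3.37 prior degrees of freedom), in 1 fit over 3 groups with 4 contrasts, two-sided. "Rose" and "fell" mean a Benjamini-Hochberg adjusted p below 0.05 over these genes. An exact test of 3 against 3 arrays has a smallest possible p of 0.1 and was not used. The code was tested on simulated data.

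The members, lists and tests were chosen with earlier results of these data known. Values on every array are given for members that passed, for the 3 members per role with the largest difference of both knockouts from wild type, for the SREBP and LXR genes, and for Hmgcs1 and Elovl6. Of other pathway genes those that passed, or the 2 with the largest difference, are named. Alternatives were other filters, probe set summaries, scalings and fits, array weights, a replicate block, and each array left out.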

Additional observations from a re-analysis of the deposited data

How the results depend on the processing

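The number of the 31 members called, 0 in CD4-cre, 1 in Foxp3-cre, 1 over both knockouts and 0 between the knockouts, depended on the processing. With array weights it was 11 (9 higher), 7 (4 higher), 10 (7 higher) and 5 (0 higher), where 1298, 1539, 1604 and 812 genes of 7436 were called in all, against 49, 250, 168 and 1. With quantile normalization it was 1, 2, 3 and 0, where 46, 315, 173 and 5 genes were called in all. With arrays centred on their median it was 2 in Foxp3-cre, where 315 genes were called in all. A filter at the 60th percentile, under which Stard4 is not tested, gave 0 in Foxp3-cre and 0 over both knockouts. There 172 and 123 genes were called in all. Fitting only the groups compared gave 0 in Foxp3-cre (Stard4 limma adjusted p = 0.115), where 16 genes were called in all. The mean of all probe sets gave 0 over both knockouts (Stard4 at 0.33, limma adjusted p = 0.0535), where 156 genes were called in all. Leaving out 1 array at a time gave 0 to 3 in CD4-cre, 0 to 3 in Foxp3-cre, 0 to 3 over both knockouts and 0 to 0 between them. The genes called in all then numbered 4 to 191, 71 to 567, 54 to 399 and 1 to 72. The call of Stard4 over both knockouts was lost without wild type replicate 3, without CD4-cre replicate 1, 2 or 3 and without Foxp3-cre replicate 3, at limma adjusted p = 0.0511 to 0.0838. The cause was not tested.

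With the replicate number as a block, the counts were 0, 1, 1 and 0, and 67, 354, 226 and 96 genes were called in all. The main fit did not take the numbers as pairs. Deviations of same-numbered arrays correlated at -0.032 to 0.492, over 0.1 in 7 of 9 pairs. Of the 9 arrays, 7 correlated best with an array of their own number. These values give no reason against pairing, and what same-numbered arrays share was not tested.

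Over all alternatives for the members given on every array, 861 values kept their direction and side of the threshold, 9 lost the call, 34 gained it and 29 changed sign. None of the sign changes was in a value that passed with all arrays. With array weights Mvk stood at 0.12 in CD4-cre and 0.052 over both knockouts, Msmo1 at -0.10 in Foxp3-cre and -0.0473 over both, Srebf2 at -0.0718 in Foxp3-cre, Hmgcs1 at 0.0699 in Foxp3-cre and Elovl6 at -0.24 in CD4-cre. With the mean of all probe sets Srebf2 stood at -0.0782 and Hmgcs1 at 0.21 in Foxp3-cre, and Elovl6 at -0.12 in CD4-cre. Srebf2 in Foxp3-cre stood at -0.0383 with centred arrays and at -0.0194 with quantile normalization. With 1 array left out, values ranged from -0.16 to 0.13 for Mvk in CD4-cre and -0.25 to 0.0483 over both, from -0.0535 to 0.30 for Msmo1 in Foxp3-cre and -0.0157 to 0.34 over both, and from -0.0381 to 0.0559 for Srebf2 in Foxp3-cre. Insig2 ranged from -0.14 to 0.018 in CD4-cre, -0.13 to 0.0283 in Foxp3-cre and -0.13 to 0.0232 over both. Hmgcs1 ranged from -0.20 to 0.13 in Foxp3-cre and -0.0525 to 0.28 over both, and Elovl6 from -0.21 to 0.19 in CD4-cre and -0.37 to 0.0297 over both.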
